A study of Mus musculus with 319 samples.

Results

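Flrt3, Bex1, Bex4, Nrep, Stx19, Epha5 and Mei4 are 7 genes, of 48795 counted, that were found in some thymic tuft cells and not in others and were listed together because they were found in cells with many bitter taste receptor genes. They were chosen from these data, by their detection in single cells, their detection in the same cells as each other and their relation to the number of Tas2r genes per cell, so those 3 properties are given below as descriptions, with no test. Every member had a row in both deposited count tables, and all 7 are accounted for in each set of cells. The working name of the group, neuronal-type genes, fitted the known roles of Flrt3, Nrep, Epha5 and the BEX genes better than those of Stx19, a syntaxin, and Mei4, a gene of meiosis.

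Tuft cells are epithelial cells that use the parts of taste transduction, including the taste G protein gustducin and the channel Trpm5, and the thymic medulla holds a population of them that makes the cytokine Il25. Tas2r genes encode the bitter taste receptors, G protein-coupled receptors that each bind their own range of bitter compounds. FLRT and Eph proteins act at the cell surface in adhesion and axon guidance, BEX proteins are small intracellular proteins abundant in brain, and SNARE proteins such as syntaxins drive the fusion of membranes.

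Single cells were sorted into wells by a gate of EPCAM+ and Flare25+ events that were also MHCIIlo, CD45-, CD11c- and UVBlue-, where Flare25 is a reporter of Il25, and polyadenylated RNA was read by Smart-seq2, which covers whole transcripts and has no molecular identifiers. The Aire-/- batch 2 set came from naive C57BL/6.Il25.Aire mice of genotype Flare25/Flare25 Aire-/-, 6 weeks old except for 1 well of 5 weeks. The WT batch 2, WT June29 and WT June5 sets came from naive C57BL/6.Il25 mice of genotype Flare25/Flare25, 6 weeks old, and both June sets belong to batch 1. Both genotypes were of mixed sex and carried the Flare25 alleles, so the wild-type cells are reporter cells too. Each set was treated as 1 sample, because the labels name no animals within it. After filtering, 96 of 96 cells of Aire-/- batch 2, 89 of 92 of WT batch 2, 87 of 95 of WT June29 and 29 of 31 of WT June5 were used, 301 of 314 in all. Median gene reads per cell were 638298 in Aire-/- batch 2, 566923 in WT batch 2, 1150167 in WT June29 and 539655 in WT June5. Reads of the targeted gene, Aire, came to 152.7 CPM, the reads scaled by the gene reads of a set, in Aire-/- batch 2, against 18.9 CPM in WT batch 2, 11.2 in WT June29 and 7.84 in WT June5. These reads were summed over the whole gene, so they cannot check a label of a partial deletion. All 20 genes of a tuft list reached 20 CPM in all 4 sets, and Trpm5 was found in 97.8% of cells or more in each set.

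The 2 members that lie next to each other on chromosome X, Bex1 and Bex4, are shown first, because their sequences decide how far their reads can be told apart. Bex4 (GRCm38 chrX:136138996-136140443, plus strand) and Bex1 (chrX:136213972-136215513, minus strand) are separated by 73528 bases. The 250 bases upstream of each start, from RefSeq on GRCm38.p6 (Bex1 chrX:136215514-136215763, minus strand, and Bex4 chrX:136138746-136138995, plus strand), are given 5′ to 3′, with capitals for bases that differ between them or lie outside their alignment.

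Bex1: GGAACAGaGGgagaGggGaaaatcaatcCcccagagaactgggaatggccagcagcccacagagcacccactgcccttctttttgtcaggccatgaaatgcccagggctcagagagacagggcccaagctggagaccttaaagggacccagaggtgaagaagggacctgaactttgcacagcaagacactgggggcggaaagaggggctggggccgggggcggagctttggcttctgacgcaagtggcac
Bex4: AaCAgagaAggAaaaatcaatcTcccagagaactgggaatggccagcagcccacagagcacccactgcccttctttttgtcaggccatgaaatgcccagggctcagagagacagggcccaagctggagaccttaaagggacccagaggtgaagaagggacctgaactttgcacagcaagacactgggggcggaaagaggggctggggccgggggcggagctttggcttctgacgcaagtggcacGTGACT

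Over 244 aligned positions 238 were identical (97.5%), with 6 differences, no gap and an identical run of 221 bases. The likeness went on into the transcripts. Of all 50-base words in the annotated transcripts, 30.9% of those of Bex1 and 49.7% of those of Bex4 also occurred in another gene, and 16.01% of those of Bex1 and 25.8% of those of Bex4 occurred in the other of the pair, so the split of reads between these genes is uncertain. Bex1 also shares 223 exon bases, 18.8% of its exon length, with Tceal7 on the other strand. For the other members 1.70% of words or fewer were shared.

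Flrt3 (chr2:140650914-140671469, minus strand) lies inside the span of Macrod2 and Stx19 (chr16:62814676-62824346, plus strand) inside that of Arl13b, in both cases on the opposite strand and with 0 shared exon bases. Their upstream windows were the only ones of the 6 searched that held CATCTG, an E-box form, and are shown with that motif in capitals (Flrt3 chr2:140671477-140671726, minus strand; Stx19 chr16:62814426-62814675, plus strand).

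Flrt3: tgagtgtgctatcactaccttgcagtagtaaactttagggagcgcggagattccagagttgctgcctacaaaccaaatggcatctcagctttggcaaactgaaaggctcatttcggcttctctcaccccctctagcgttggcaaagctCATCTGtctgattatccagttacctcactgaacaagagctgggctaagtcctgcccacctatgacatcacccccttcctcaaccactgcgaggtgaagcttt
Stx19: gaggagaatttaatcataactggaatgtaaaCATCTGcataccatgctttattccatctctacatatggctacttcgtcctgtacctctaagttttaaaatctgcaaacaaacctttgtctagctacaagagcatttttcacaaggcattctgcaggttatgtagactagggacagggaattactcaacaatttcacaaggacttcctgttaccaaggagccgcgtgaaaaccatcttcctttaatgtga

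Searched on both strands of the 250-base windows of 32851 promoters, CATCTG was in 14.4% of them. GGGCGG, the GC box, was in the windows of Bex1, Bex4, Epha5 and Mei4 and in 32.7% of all windows. CACGTG, another E-box form, was in that of Bex4 and in 6.02% of all. ATGCAAAT (the octamer, in 1.60% of all windows), CAGCTG (13.001%) and TTCAGCACC (the left part of the RE1 element, 0.301%) were in none of the 6. A match is a match of letters and not a site. No window of Nrep was searched. The other members are Nrep (chr18:33437019-33464029, minus strand), Epha5 (chr5:84054761-84417382, minus strand) and Mei4 (chr9:81863670-82206007, plus strand), so the members other than the BEX pair sit on 5 chromosomes.

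Nrep, which encodes the neuronal regeneration related protein, was the most widely found member. A gene was counted as found in a cell with 5 or more reads. Nrep was found in 41.7% of cells of Aire-/- batch 2 (95% exact interval 31.7 to 52.2), against 56.2% of WT batch 2 (45.3 to 66.7), 48.3% of WT June29 (37.4 to 59.2) and 51.7% of WT June5 (32.5 to 70.6). Its pooled level was 358 CPM in Aire-/- batch 2, 252 CPM in WT batch 2, 981 CPM in WT June29 and 295 CPM in WT June5. WT June29 stood highest in level but not in share. In that set a further 41.4% of cells had 1 to 4 Nrep reads, against 14.6% in Aire-/- batch 2, 8.99% in WT batch 2 and 13.8% in WT June5, and its cells were the deepest. The highest Nrep cells reached 8699 CPM in Aire-/- batch 2, 2368 CPM in WT batch 2, 11569 CPM in WT June29 and 1889 CPM in WT June5. Over the cells with Nrep the median was 193.9, 225.7, 397.0 and 112.9 CPM in the same order of sets, so single cells far above the median carried much of the pooled level.

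The members that act at the cell surface are Flrt3, a leucine-rich repeat adhesion protein that binds latrophilins and Unc5 receptors, and Epha5, a receptor tyrosine kinase for ephrin-A ligands. Flrt3 was found in 17.7% of cells of Aire-/- batch 2 (10.7 to 26.8), 21.3% of WT batch 2 (13.4 to 31.3), 14.9% of WT June29 (8.20 to 24.2) and 13.8% of WT June5 (3.89 to 31.7). Its pooled level was 46.9 CPM in Aire-/- batch 2, 110 CPM in WT batch 2, 92.6 CPM in WT June29 and 42.01 CPM in WT June5. Epha5 was found in 12.5% of Aire-/- batch 2 (6.63 to 20.8), 16.9% of WT batch 2 (9.75 to 26.3), 5.75% of WT June29 (1.89 to 12.9) and 6.90% of WT June5 (0.846 to 22.8). Its pooled level was 16.6 CPM in Aire-/- batch 2, 31.8 CPM in WT batch 2, 10.5 CPM in WT June29 and 5.96 CPM in WT June5. For both genes the intervals of the shares overlapped across the 4 sets. Cells with Flrt3 had medians of 140.2, 243.7, 241.8 and 159.1 CPM in Aire-/- batch 2, WT batch 2, WT June29 and WT June5, and cells with Epha5 had 108.9, 108.2, 84.4 and 125.7 CPM.

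Bex1 and Bex4 belong to the brain-expressed X-linked family. Bex4 was found in 14.6% of Aire-/- batch 2 (8.21 to 23.3), 11.2% of WT batch 2 (5.52 to 19.7), 10.3% of WT June29 (4.84 to 18.7) and 13.8% of WT June5 (3.89 to 31.7). Bex1 was found in 11.5% of Aire-/- batch 2 (5.86 to 19.6), 4.49% of WT batch 2 (1.24 to 11.1), 10.3% of WT June29 (4.84 to 18.7) and 13.8% of WT June5 (3.89 to 31.7). Bex4 was higher than Bex1 in 3 of the 4 pooled levels. Bex4 had 28.7 CPM in Aire-/- batch 2, 43.4 CPM in WT batch 2, 26.2 CPM in WT June29 and 21.1 CPM in WT June5. Bex1 had 8.52 CPM in Aire-/- batch 2, 7.49 CPM in WT batch 2, 5.62 CPM in WT June29 and 23.9 CPM in WT June5. In WT June5 a single cell gave 57.02% of the Bex1 reads. In WT batch 2 the 4 cells with Bex1 had 81.6 to 207 CPM, and a further 10.1% of cells had 1 to 4 reads.

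Stx19, a SNARE protein of the syntaxin family, was the member absent from a whole set. It was found in 15.6% of Aire-/- batch 2 (9.02 to 24.5), 10.1% of WT batch 2 (4.73 to 18.3), 10.3% of WT June29 (4.84 to 18.7) and 0 of 29 cells of WT June5, which allows a share of up to 10.3% by 3 counts. The shares of the other wild-type sets do not lie above that limit. Its pooled level was 59.5 CPM in Aire-/- batch 2, 30.4 CPM in WT batch 2 and 22.8 CPM in WT June29. In WT June5 no Stx19 read was counted, against a limit of 0.120 CPM that covers counting error only.

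Mei4, which acts with Rec114 in forming the DNA breaks that start meiotic recombination, was found in 11.5% of Aire-/- batch 2 (5.86 to 19.6), 23.6% of WT batch 2 (15.2 to 33.8), 10.3% of WT June29 (4.84 to 18.7) and 20.7% of WT June5 (7.99 to 39.7). Its pooled level was 33.5 CPM in Aire-/- batch 2, 117.6 CPM in WT batch 2, 61.2 CPM in WT June29 and 27.4 CPM in WT June5. Cells with Mei4 had a median of 217 CPM in Aire-/- batch 2, 315 CPM in WT batch 2, 318 CPM in WT June29 and 45.2 CPM in WT June5.

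Per kilobase of exon, the mean of the 4 pooled levels was highest for Nrep, at 120.6 CPM per kb, and followed by Bex4 at 35.7, Flrt3 at 15.0, Mei4 at 14.5, Stx19 at 10.0, Bex1 at 9.60 and Epha5 at 0.970. The Nrep levels per kb (64.4 to 251) did not overlap those of Bex4 (25.3 to 51.9) over the sets. Bex4 in turn overlapped none of Flrt3 (8.64 to 22.5), Stx19 (0 to 21.1) or Bex1 (4.73 to 20.2), but did overlap Mei4 (6.65 to 28.5). Flrt3, Mei4, Stx19 and Bex1 overlapped each other, so their order is not separated beyond the spread of the sets. Epha5 (0.356 to 1.90) lay below every member but Stx19 in each set. The plot of levels by set shows the wide Nrep lead beside the 6 genes of low share.

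**Figure D1:**
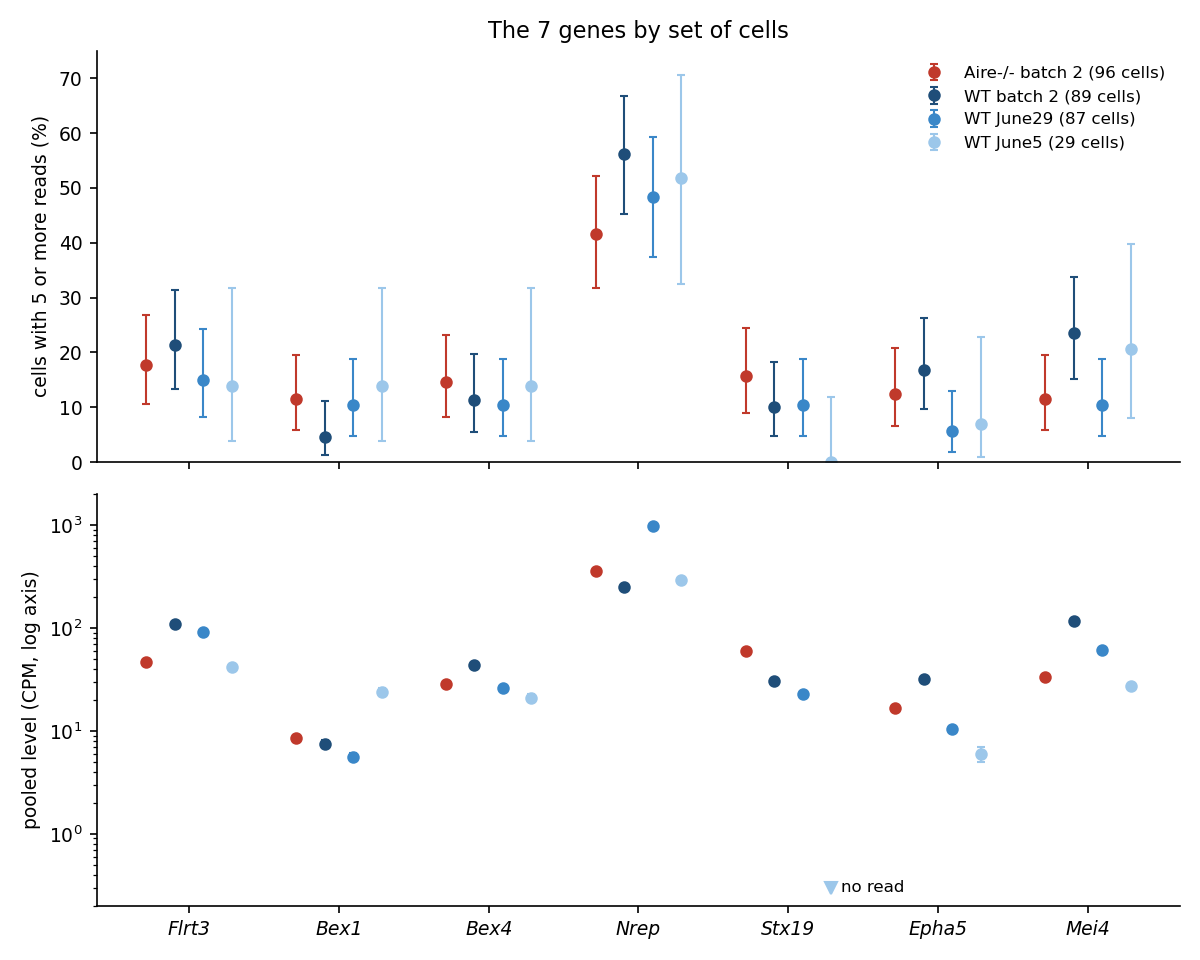
The upper panel gives the percentage of cells with 5 or more reads of each gene (points, with 95% exact binomial intervals) and the lower panel the pooled level in CPM on a log axis (points, with 95% exact Poisson intervals), for the 4 sets of cells. Nrep lies between 41.7% and 56.2% of cells, the other 6 genes between 0% and 23.6%, and Stx19 has no read in WT June5.

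No member was found in 120 of 301 cells (39.9%), 1 member in 91 and 2 or more in 90 (29.9%, interval 24.8 to 35.4). Cells with 2 or more made up 30.2% of Aire-/- batch 2 (21.3 to 40.4), 37.1% of WT batch 2 (27.1 to 47.97), 21.8% of WT June29 (13.7 to 31.98) and 31.03% of WT June5 (15.3 to 50.8), so the intervals of the sets overlapped. Nrep was the most common of them, and 56 cells (18.6%) held 2 or more of the other 6. A cell of WT June29 held all 7 members and had reads of 18 Tas2r entries. Cells with 4 or more members, 32 in all, had a median of 953996 gene reads and 5045 genes, against 695019 gene reads and 4524 genes in the rest.

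The relation to bitter receptors was part of how the genes were picked. With 1 read or more counted, the number of Tas2r entries per cell, of 40 including 5 named as pseudogenes, had a median of 4 in Aire-/- batch 2, 3 in WT batch 2, 5 in WT June29 and 6 in WT June5, and reached 24, 22, 27 and 28. The median Tas2r number was 17.5 in cells with 4 or more members and 4 in the other cells. Within Aire-/- batch 2 these medians were 18 and 4, within WT batch 2 19 and 2.5, within WT June29 12 and 5, and within WT June5 22 and 5. The step was thus in the same direction in each set and smallest in WT June29. By number of members, the median Tas2r number over all sets was 3 with none, 4 with 1, 9 with 2, 6 with 3, 18.5 with 4, 18 with 5 and 16 with 6. It did not climb evenly, and the cells with 3 members were nearer to those with 1 or 2 than to those with 4.

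**Figure D2:**
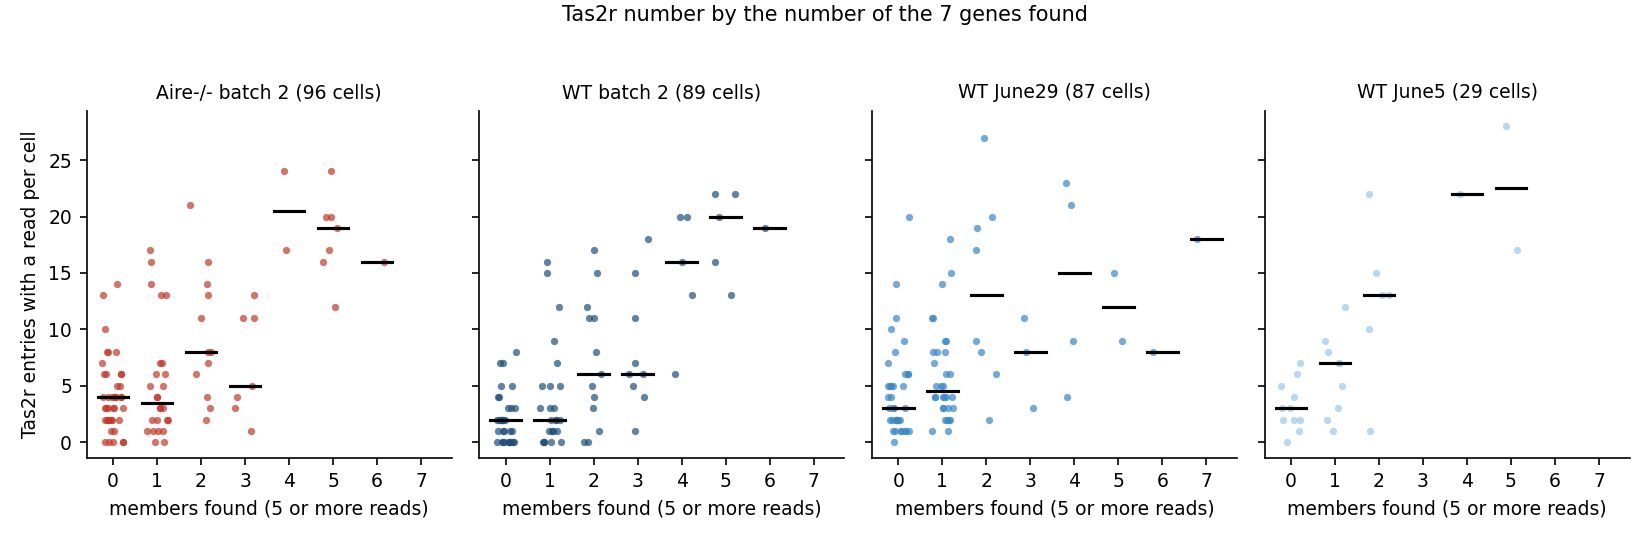
Each point is a cell, placed by how many of the 7 genes it held with 5 or more reads (horizontal, spread sideways for sight) and by its number of Tas2r entries with a read (vertical), in a panel per set with black bars at the medians. In Aire-/- batch 2 and both larger wild-type sets most cells sit at 0 or 1 member and under 10 Tas2r entries, and the cells with 4 or more members sit higher, with medians of 18, 19 and 12.

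Of the 301 cells 74 had 10 or more Tas2r entries, and 11 cells lay at 9 or 10 entries, next to that limit. Among the 74 cells, 67 (90.5%, 81.5 to 96.1) held at least 1 member and 27 (36.5%, 25.6 to 48.5) held 4 or more. Among the 227 cells under the limit, 50.2% (43.5 to 56.9) held at least 1 member and 5 (2.20%, 0.719 to 5.07) held 4 or more. Of these 5 cells under the limit, 4 were in WT June29, with 4, 8, 9 and 9 Tas2r entries, and 1 was in WT batch 2, with 6. Gene by gene, the share in cells of 10 or more entries and in the rest was 43.2% and 9.25% for Flrt3, 28.4% and 5.73% for Epha5, 39.2% and 3.52% for Bex4, and 22.97% and 4.85% for Bex1. For Nrep it was 81.1% and 38.3%, for Stx19 24.3% and 6.61%, and for Mei4 35.1% and 9.25%. Bex4 was the member with the lowest share outside the cells rich in Tas2r, while Nrep was common on both sides. The gap differed between sets. For Stx19 it was small in WT June29, at 11.1% of cells of 10 or more entries and 10.1% of the others, and for Epha5 it was smallest in WT June5, at 11.1% and 5%. The members marked these cells incompletely, since 7 of the 74 held none of them, 3 in Aire-/- batch 2 and 4 in WT June29.

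**Figure D3:**
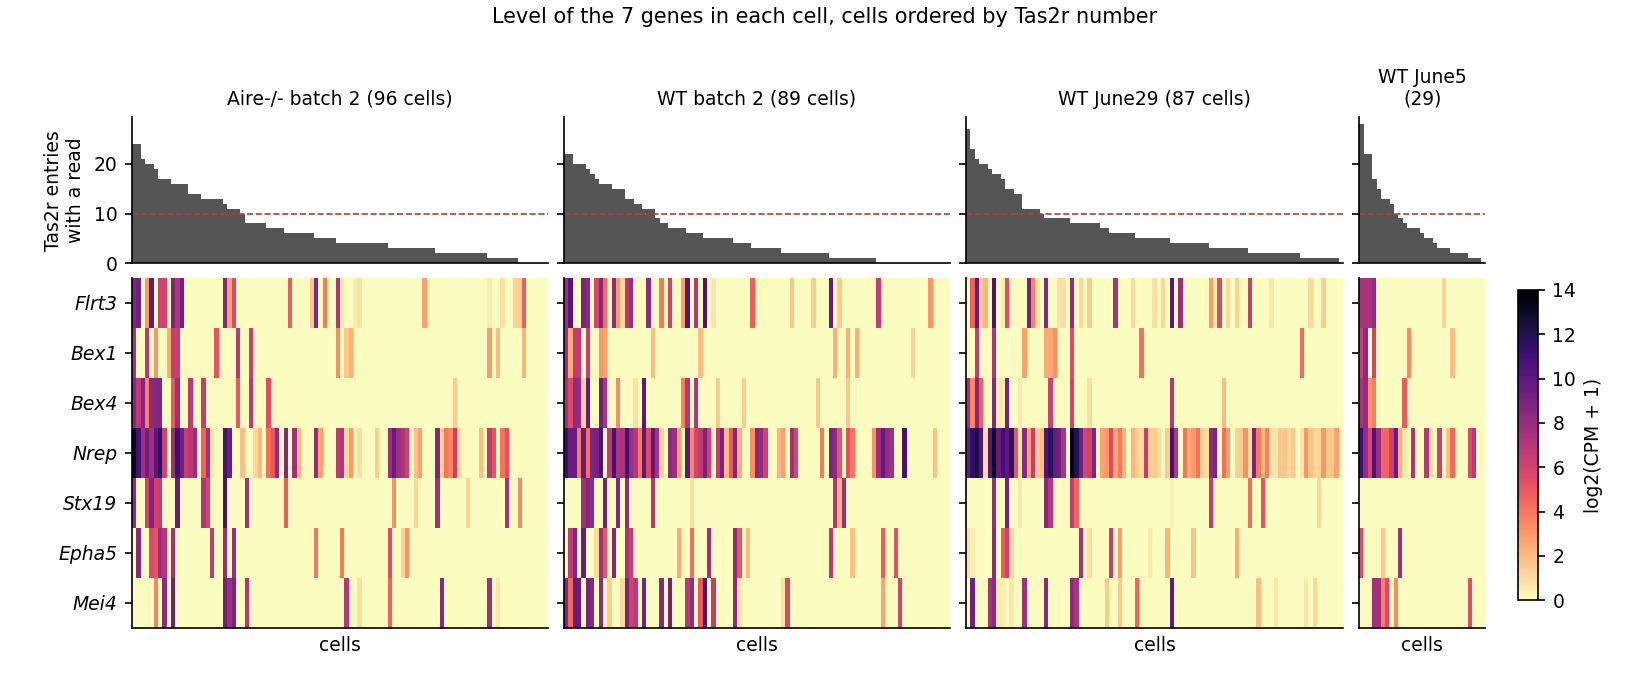
Each column is a cell, ordered within its set from most to fewest Tas2r entries with a read (bars above, with the limit of 10 as a dashed line), and the colour gives the level of each gene as log2(CPM + 1). In Aire-/- batch 2 and WT batch 2 the 6 genes other than Nrep are densest at the left, where the bars pass 10, while in WT June29 8 of 13 Flrt3 cells, 6 of 9 Bex1 cells, 7 of 9 Stx19 cells and 5 of 9 Mei4 cells lie to the right of it, and Stx19 has no cell in WT June5.

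To set depth aside, cells were thinned to 231697 gene reads each, which left 84 cells in Aire-/- batch 2, 79 in WT batch 2, 85 in WT June29 and 23 in WT June5. Spearman rho between a member's thinned reads and the Tas2r number was then taken over the cells of a set, which are not replicates. Bex4 had 0.54 in Aire-/- batch 2, 0.48 in WT batch 2, 0.42 in WT June29 and 0.62 in WT June5. Nrep had 0.43, 0.52, 0.60 and 0.63 in that order, and Flrt3 had 0.38, 0.42, 0.27 and 0.65. These 3 genes had means of 0.51, 0.55 and 0.43 and were the members with the closest relation. Epha5 had 0.39, 0.37, 0.24 and 0.26, Bex1 had 0.18, 0.30, 0.20 and 0.46, and Stx19 had 0.33, 0.24 and 0.15 in the 3 sets with reads. Mei4 differed most between genotypes of the same batch, with 0.10 in Aire-/- batch 2 and 0.55 in WT batch 2, beside 0.36 in WT June29 and 0.35 in WT June5. No test of that gap was possible with 1 pool per genotype. Mei4 was read in 10 of the 84 thinned cells of Aire-/- batch 2 and in 21 of the 79 of WT batch 2.

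A rho of 0.3 or more was reached by 5 of 7 members in Aire-/- batch 2, 5 of 7 in WT batch 2, 3 of 6 in WT June29 and 5 of 5 in WT June5, among members read in enough cells. Over all genes it was reached by 2.57% in Aire-/- batch 2, 1.9% in WT batch 2, 5.13% in WT June29 and 11.8% in WT June5. The mean over the 4 sets reached 0.3 for 4 of the 4 members that could be set beside 8045 genes, of which 1.57% did. The members were picked for this relation, so nothing is read from these counts. The authors' labels hold a column headed Batch that splits each batch 2 set into 1 and 2, called plates here. Within these, the median rho of the 7 was 0.48 on plate 1 and 0.29 on plate 2 of Aire-/- batch 2. It was 0.41 on plate 1 and 0.44 on plate 2 of WT batch 2. Bex1 had a rho of 0.48 on plate 1 and -0.22 on plate 2 of Aire-/- batch 2, the only negative value among the 28 of members and plates.

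Single receptors did not relate alike to the members. Of the Tas2r entries, 23 had a read in at least 5% of thinned cells of every set. They were not matched for how often they were read, so their order was not set apart from detection. Tas2r104 had the highest mean rho over the 7 members (0.43, from 0.22 to 0.69), followed by Tas2r105 (0.40), Tas2r115 (0.35) and Tas2r137 (0.34). Tas2r141-ps4 was lowest, at 0.14. The closest relation of any member to an entry was that of Bex4 to Tas2r104, with a mean rho of 0.69 and 0.68 in Aire-/- batch 2, 0.63 in WT batch 2, 0.68 in WT June29 and 0.77 in WT June5. Tas2r104 was also the closest entry for Flrt3 (0.52), Nrep (0.51), Bex1 (0.41) and Stx19 (0.35). Epha5 was closest to Tas2r105 (0.34), and Mei4 to Tas2r115 (0.33).

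Counted in cells with 5 or more reads, Tas2r104 was found in 41 of 301 cells. This entry was taken up for its rho with the members in these same cells, and the counts were made without thinning. They describe that relation again, and nothing further is read from them. Bex4 was found in 26 of those 41 cells (63.4%), against 11 of the other 260 (4.23%), so that 70.3% of Bex4 cells had Tas2r104. Flrt3 was found in 22 of the 41 (53.7%), against 31 of 260 (11.9%). Nrep was found in 38 of the 41 (92.7%), against 41.9% of the 260. Bex4 had the lowest share in cells without Tas2r104, and in WT June29 8 of its 9 cells had Tas2r104. Stx19 and Mei4 were each in 14 of the 41 cells (34.1%), with 7.31% and 12.7% in the others. Of the 40 Tas2r entries 38 lie on chromosome 6, while no member does.

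The members were also related to each other. The mean rho over the 4 sets, or over the 3 with reads for pairs with Stx19, was above 0 in 21 of 21 pairs. It averaged 0.286, with 15 pairs at 0.2 or more. The highest was Flrt3 with Bex4, at 0.50 (0.35 in Aire-/- batch 2, 0.38 in WT batch 2, 0.39 in WT June29 and 0.85 in WT June5). Bex1 with Bex4 followed at 0.46, a pair with shared sequence whose split of reads is uncertain, and Bex4 with Nrep had 0.41. The lowest was Bex1 with Epha5, at 0.11. In WT June5 by itself, Epha5 with Mei4 had -0.18 and Bex4 with Mei4 had -0.06. For 4 members, Flrt3, Bex4, Nrep and Mei4, reads were frequent enough to set their pairs beside all pairs of 8062 genes, of which 3.53% reached 0.2 with a median of 0.04. Of the 6 pairs of these 4 members 5 reached 0.2, and co-detection was part of the choice of members, so nothing is read from that count. Flrt3 with Bex4 was found in 23 cells, where the product of their shares would give 6.51, and all 21 pairs lay above that product, 14 of them at 2 times or more. Bex1 with Epha5, in 4 cells, lay nearest to it, at 1.41 times, and the pairs with Nrep followed at 1.51 to 1.85 times. These cells were counted without thinning, and pairs of other genes were not counted in this way. With members picked for co-detection, nothing is read from these counts either.

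**Figure D4:**
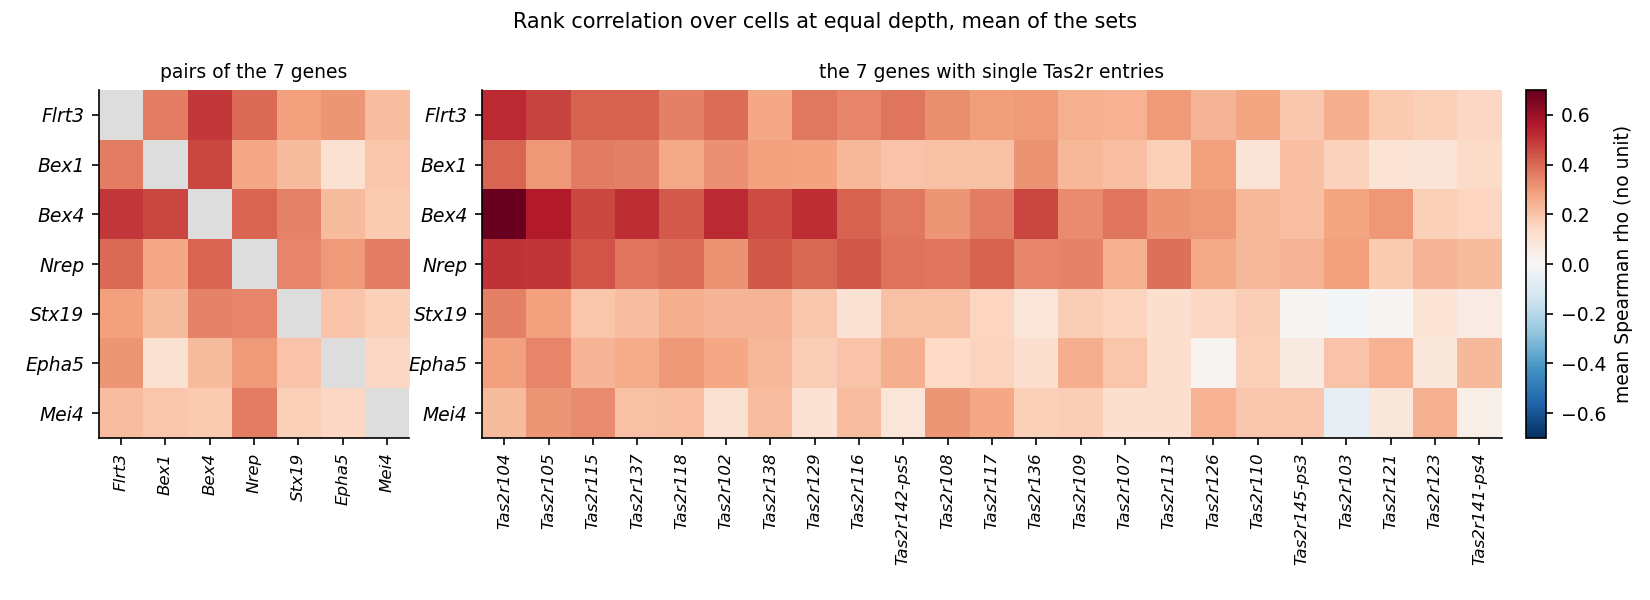
Colours give Spearman rho over cells at equal depth, averaged over the sets, for pairs of the 7 genes (left, diagonal in grey) and for the 7 genes with 23 Tas2r entries, ordered by their mean (right). The strongest cell is Bex4 with Tas2r104 at 0.69, the pairs run from 0.11 to 0.50, and values fade towards Tas2r141-ps4 at the right.

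Bex1 and Bex4 were found together in 17 cells, of 28 with Bex1 and 37 with Bex4. There were 11 Bex1 cells without any Bex4 read and 16 Bex4 cells without any Bex1 read. In cells with both, the ratio of Bex1 to Bex4 reads ran from 0.0675 to 9.11, with a median of 0.507.

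The genes most like each member were taken as the 3 with the highest mean rho over the sets, among genes read in at least 10% of thinned cells of every set. Tas2r104 was among the 3 most alike genes for 5 members, Rgs21, a regulator of G protein signalling, for 4, and Tas2r105 for 3. The members were picked for their relation to the Tas2r number, and the genes named in this paragraph related to it too. Their mean rho with it ran from 0.27 to 0.70, with 0.70 for Tas2r105, 0.60 for Tas2r104 and 0.58 for Rgs21. Nothing is therefore read from which genes were most alike. For Nrep the most alike gene was Gnat3, which encodes the gustducin alpha subunit, with a mean rho of 0.61 (0.49 in Aire-/- batch 2, 0.45 in WT batch 2, 0.66 in WT June29 and 0.83 in WT June5). Scn2a, a voltage-gated sodium channel, was named for Flrt3 (0.45) and Bex1 (0.39), and Fgf14, which binds sodium channels, for Epha5 (0.40), followed by Tas2r105 (0.34) and Lipc, a lipase (0.33). Tceal8, of the related TCEAL family, was named for Bex1 (0.41). Mei4 was most like Rgs21 and Krt19, a keratin, at 0.40 each, and like Slitrk6, a leucine-rich repeat membrane protein, at 0.34. Stx19 was most like Rgs21 (0.37), Ovol3, a zinc finger gene (0.35), and Tas2r104 (0.35), over the 3 sets with reads. For the number of members found per cell, the 3 most alike genes were Gnat3 (0.58), Rgs21 (0.57) and Commd1 (0.55), which was found in 59.8% to 77.1% of cells. That number was counted before thinning, so depth was not set aside for it. It had a mean rho of 0.23 with the gene reads of a cell, and 0.45 in WT June29. The rho values of this paragraph rest on the 271 cells deep enough to be thinned, and cells of a set are not replicates.

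Relations to the tuft markers as a whole were weak, negative in the mean of the sets and not alike in each. The members' mean rho with the summed tuft list was negative for each of the 7, from -0.24 for Flrt3 to -0.08 for Bex1 and Nrep, and ranged between 0.05 and 0.25 with the number of genes per cell. In WT June29 the rho with the tuft list was above 0 for 4 members, Nrep (0.29), Mei4 (0.09), Bex4 (0.06) and Epha5 (0.04). The mean rho with the summed reads of Igfbp5, Colq and Tppp3, genes that mark another group of these cells, was also negative for all 7, from -0.27 for Bex4 to -0.09 for Epha5 and Bex1. With Gp2, Nmur1 and Unc5b, which mark a further group, it ran from -0.17 for Stx19 to -0.03 for Nrep. With Adh1, Lypd1 and Fabp5, which mark another, it ran from -0.23 for Bex4 to 0.01 for Mei4, the only value above 0. The Tas2r number itself had a mean rho of -0.02 with the tuft list. With the genes of these groups it had -0.22, -0.18 and -0.19, in the order given.

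Between genotypes, Aire-/- batch 2 was set against WT batch 2 only, within the same batch. A size rule asked for 20 CPM or more in whichever set was higher, for a fold of 1 or more on the log2 scale after adding 1 CPM, and for a gap of 15 points or more between the shares of cells. Bex1 was under 20 CPM in both sets and was not tested, and none of the 6 tested members passed in either direction. Of 8267 tested genes, 1.02% passed as higher and 0.399% as lower. Bex4, found in 14.6% of Aire-/- batch 2 and 11.2% of WT batch 2, could not show a gap of 15 points, so the rule could not pass it. Mei4 had the lowest fold, at -1.78 on the log2 scale with a share difference of -12.1 points (11.5% of Aire-/- batch 2 and 23.6% of WT batch 2). On plate 1 it passed as lower, with a log2 fold of -1.90 and shares of 8.33% in Aire-/- cells and 27.1% in WT cells, where 2.65% of genes passed as higher and 1.46% as lower. On plate 2 its log2 fold was -1.77 with shares of 14.6% in Aire-/- cells and 19.5% in WT cells, and it did not pass, where 3.62% of genes passed as higher and 1.28% as lower. Flrt3 had a log2 fold of -1.21, with -1.01 on plate 1 and -1.42 on plate 2, and a share difference of -3.64 points. For these 2 genes the level was lower in Aire-/- cells on both plates.

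For other members the plates disagreed in sign. Bex4 had a log2 fold of 0.82 on plate 1 and -2.37 on plate 2, Bex1 of 1.07 and -1.93, Nrep of 0.88 and -0.57, and Stx19 of 1.64 and -0.17. Epha5 was below 0 on both, at -0.45 and -1.94, but with the median level of all 3 WT sets as denominator its log2 fold was 0.61, in place of -0.90 with WT batch 2. By the same change that of Mei4 was -0.85 in place of -1.78. Single cells weighed on these folds. When the top cell of the higher set was left out, the log2 fold was -0.81 in place of -1.21 for Flrt3, -0.06 in place of 0.95 for Stx19, -0.05 in place of 0.51 for Nrep, -0.32 in place of 0.17 for Bex1, -0.08 in place of -0.58 for Bex4, -0.41 in place of -0.90 for Epha5 and -1.44 in place of -1.78 for Mei4. The cell left out was chosen for each gene on its own, and in Aire-/- batch 2 it held 52.9% of all Stx19 reads for Stx19 and 33.2% of all Nrep reads for Nrep.

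**Figure D5:**
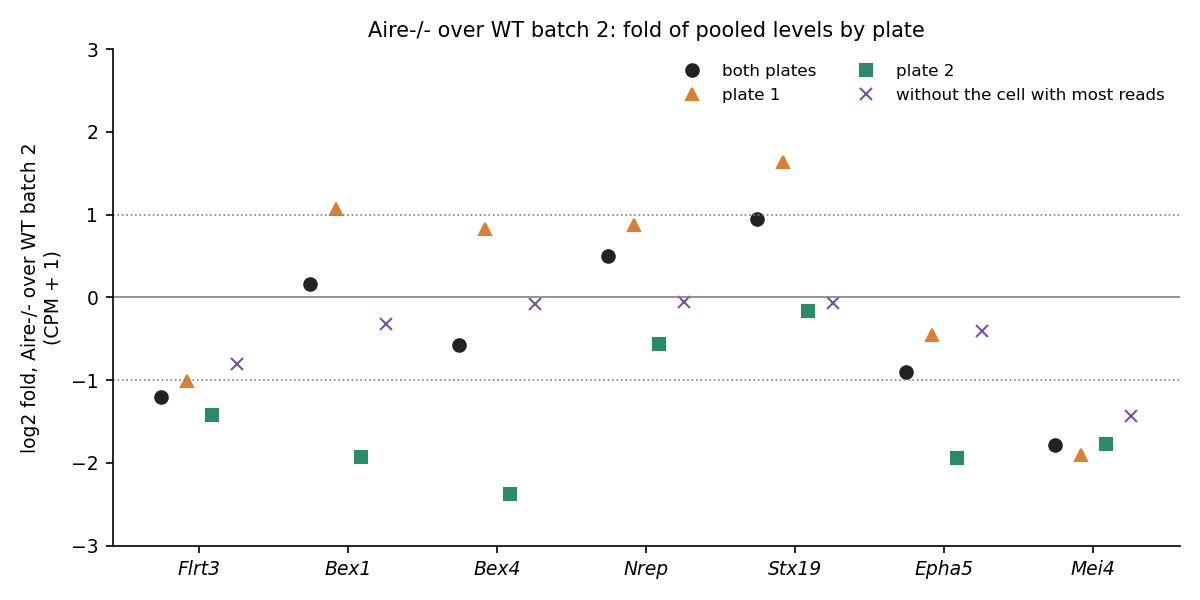
For each gene the log2 fold of Aire-/- batch 2 over WT batch 2 (pooled CPM, with 1 CPM added) is shown over both plates, on each plate and without the cell with most reads, with dotted lines at -1 and 1. The points of Mei4, Flrt3 and Epha5 all lie below 0, while Bex1, Bex4, Nrep and Stx19 have plate 1 above 0 and plate 2 below it.

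Other genes that differed between these sets are given beside the members. Summed MHC class II genes reached 6657 CPM in Aire-/- batch 2 and 2087 CPM in WT batch 2, and 4 of the 8 tested passed the size rule as higher. The 7 markers of Aire-expressing medullary epithelium, Aire among them, summed to 446 CPM in Aire-/- batch 2 and 66.5 CPM in WT batch 2, with none at 0 in either set. Of the sum in Aire-/- batch 2, Ccl22 gave 209 CPM from 1.04% of cells and Aire itself 152.7 CPM, and Aire was the 1 of 5 tested that passed the size rule. Their part in the members' folds was not tested. The rho of members with the summed MHC class II genes differed between sets. It was negative for all 7 in Aire-/- batch 2, from -0.44 for Bex4 and -0.32 for Nrep and Stx19 to -0.07 for Mei4, and negative for all 7 in WT batch 2, from -0.18 to -0.01. In WT June29 it ran from -0.08 for Epha5 to 0.35 for Flrt3. In WT June5 it was above 0 for each member with reads, from 0.003 for Flrt3 to 0.165 for Bex4. Between the wild-type sets none of the 7 members passed the size rule in any of 3 comparisons. Bex1, Bex4 and Stx19 were found in under 15% of cells of each wild-type set, so the rule could not pass them. Nor could it pass Flrt3 in WT June29 over WT June5, with shares of 14.9% and 13.8%. Bex1 in WT batch 2 over WT June29 and Epha5 in WT June29 over WT June5 were under 20 CPM and not tested. Of all genes, 3.38% passed as higher and 2.68% as lower in WT batch 2 over WT June29, 1.9% and 3.97% in WT batch 2 over WT June5, and 1.81% and 3.4% in WT June29 over WT June5. The lowest log2 fold of a member between wild-type sets was -1.96, for Nrep in WT batch 2 over WT June29. The highest was 4.97, for Stx19 in WT batch 2 over WT June5, a set without a Stx19 read. Below the folds of Stx19 over WT June5 came 2.24 for Epha5 and 2.06 for Mei4, both in WT batch 2 over WT June5.

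Relatives and partners of the members were mostly read at other levels. Of 16 genes that encode FLRT relatives and partners, 7 were tested between genotypes and none passed, with a median log2 fold of -0.46 beside -0.03 over all genes. Robo2, a guidance receptor, led them at 195.9 CPM in Aire-/- batch 2 and 184.9 CPM in WT batch 2. Unc5b, a netrin receptor that FLRT proteins also bind, had 7.09 CPM in Aire-/- batch 2 and 24.1 CPM in WT batch 2. Of 11 genes of the BEX and TCEAL family, 5 were tested and none passed, with a median of 0.01. Bex3 was the highest, at 89.6 CPM in Aire-/- batch 2 and 88.7 CPM in WT batch 2 and in 31.03% to 47.9% of cells across the 4 sets, so it was more widely found than either Bex1 or Bex4.

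Of 26 measured syntaxins and SNARE partners, 18 were tested and none passed, with a median log2 fold of -0.10. Stx7 had 405 CPM in Aire-/- batch 2 and 250 CPM in WT batch 2 and was found in 45.98% of cells or more, far more widely than Stx19. Of the 13 other Eph receptors 5 were tested, and Ephb3 passed as lower, with 15.8 CPM in Aire-/- batch 2 and 41.6 CPM in WT batch 2 and shares of 7.29% and 22.5%. Epha4 was the more widely found Eph receptor, in 29.9% to 48.3% of cells of a set, against 5.75% to 16.9% for Epha5. Of 8 ephrins, the ligands of these receptors, none was high enough to be tested, with a summed level of 55.9 CPM in Aire-/- batch 2 and 38.7 CPM in WT batch 2. The meiotic genes beside Mei4 were almost unread. Of 16 measured, none reached 20 CPM in any set, and they summed to 8.06 CPM in Aire-/- batch 2, 13.8 CPM in WT batch 2, 31.2 CPM in WT June29 and 7.595 CPM in WT June5. Rec114, the partner of Mei4, is named here after its values were seen and had no read in Aire-/- batch 2 or WT June5. Gm960, the highest of the list by the mean of the sets, had 5.52 to 10.4 CPM, and in WT June29 Prdm9 (11.07 CPM) and Dmc1 (11.001 CPM) stood above it.

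Markers of other cell types were compared between the 51 cells with 3 or more members and the other 250. At least 2 of 16 neuron markers were found in 39.2% of the 51 cells and in 37.6% of the others, with median summed levels of 115.9 CPM (range 0 to 1605) and 108.2 CPM (range 0 to 1864). In the 51 cells 8 of these markers had no read, including Rbfox3, Elavl4, Stmn2, Dcx and Gap43, which define neurons. These 5 were almost unread in the whole data, with Elavl4 the highest at 8.002 CPM in WT June29 and none above 0.247 CPM otherwise, so their zeros do not set the 51 cells apart from the rest. Nefl, a neurofilament gene, was found in 12.4% to 37.9% of the cells of a set. The highest of the list over all cells were Map2, a cytoskeletal gene, at 77.4 CPM in Aire-/- batch 2 and 69.5 CPM in WT batch 2, and Syt1, a vesicle calcium sensor, at 79.2 CPM in Aire-/- batch 2 and 104.3 CPM in WT batch 2. At least 2 of 12 neuroendocrine markers were found in 9.80% of the 51 cells and in 7.60% of the others, with Neurod1, Scg2, Scg3 and Ret at 0 in the 51 cells. Over all cells, 6 of the 12 had no read in Aire-/- batch 2, 4 in WT batch 2, 1 in WT June29 and 8 in WT June5. Germ line markers reached 2 in no cell of either group, and Dazl, Sycp3, Stra8 and Mael had no read in the 51 cells. Germ line markers summed to 1.78 CPM or less in every set, so their zeros do not set the 51 cells apart. At least 2 of 20 tuft markers were found in 51 of 51 cells and in 249 of 250, with median sums of 18124 CPM (range 5721 to 35183) and 21276 CPM (range 31.003 to 40758). At least 2 of 6 B cell markers were found in 25.5% of the 51 cells and in 12.8% of the others, with median summed levels of 63.1 CPM (range 0 to 1242) and 39.6 CPM (range 0 to 1454). Of these markers Cd79b was found in 35.6% to 66.7% of the cells of a set and Ebf1 in 5.62% to 70.1%, while Ms4a1 had no read in the 51 cells. The part of these markers in the members' levels was not tested. With all cells left out that held 2 or more markers of another type, which left 47 cells in Aire-/- batch 2, 53 in WT batch 2, 28 in WT June29 and 8 in WT June5, the share with 2 or more members was 26.5%.

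In wells of 50 sorted cells, all members but Stx19 were read in both genotypes. The titles and genotype labels of these wells match the count table that holds them, but their descriptions point to the table of the other genotype, so which genotype each well holds is less sure than for the single cells. The 50-cell Aire-/- well, of 539621 gene reads, had 7 reads of Flrt3, 6 of Bex1, 28 of Bex4, 18 of Nrep, 0 of Stx19, 2 of Epha5 and 4 of Mei4. The 50-cell WT well, of 720527 gene reads, had 26 of Flrt3, 41 of Bex1, 39 of Bex4, 48 of Stx19, 3 of Epha5 and 82 of Mei4, and its Nrep level was 155.4 CPM, against 33.4 CPM in the Aire-/- well. For Mei4 this is 7.41 CPM (2.02 to 18.98) in the Aire-/- well, against 113.8 CPM (90.5 to 141.3) in the WT well, the same direction as in single cells, from 1 well of each kind. Flrt3 had 12.97 CPM (5.22 to 26.7) in the Aire-/- well, against 36.1 CPM (23.6 to 52.9) in the WT well. That was the direction of the single cells, but these intervals overlapped. Bex1 (11.1 CPM in the Aire-/- well and 56.9 CPM in the WT well), Nrep and Stx19 (0 and 66.6 CPM) were lower in the Aire-/- well too, while their pooled single-cell log2 folds were above 0, at 0.17, 0.51 and 0.95. Bex4 had 51.9 CPM in the Aire-/- well and 54.1 CPM in the WT well, with overlapping intervals (34.5 to 74.99 and 38.5 to 73.99). The no-cell well of batch 1 had 9892 gene reads, none from a member, which allows up to 303 CPM, and reads of 2 Tas2r entries.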

How the data were processed

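Per the labels, thymi were digested, epithelium was sorted by flow cytometry and libraries were made by Smart-seq2 with ERCC spike-in RNA. The authors deposited raw counts of reads for 48887 entries in each well. The submitters' processing notes name STAR, Subread, featureCounts 1.5.3 and R 3.4.0 and the build GRCm38; neither the strand setting nor the annotation is given in the sources used here. A deposited score per gene and well, whose making is not stated, served only for its list of 292 wells. What is called a plate here is a value of the column headed Batch in the authors' deposited label table. That column splits each batch 2 set into 1 and 2, and its header does not say that these are plates.

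Gene names matched 48441 entries, ERCC included. A cell needed 10000 gene reads, 1000 genes and at most 20% mitochondrial reads, and no doublet caller was run. Counts were summed per set into CPM with exact Poisson intervals, and shares of cells (5 or more reads) have exact Clopper-Pearson intervals at the 95% level. Reads can be copies of a molecule, so intervals and the limit of 3 counts behind a 0 cover counting error only. Thinning drew reads without replacement to 231697, the 10th percentile, and left out 12 cells of Aire-/- batch 2, 10 of WT batch 2, 2 of WT June29 and 6 of WT June5. No 2 wells had identical counts. With 1 pool per set no test was made, and no p-value is given. Named genes are the 7 members, the 3 genes and 3 Tas2r entries most like each, up to 4 of the highest genes of each list, and genes past the size rule, and markers without a read were named after their values were seen. The members and lists were chosen with earlier results of these data known. Upstream windows came from RefSeq (GRCm38.p6), positions from GENCODE M21. Python 3.11.15 with numpy 2.4.6, scipy 1.17.1, pandas 2.3.3, matplotlib 3.10.9 and Biopython 1.88 were used, and the code was tested on simulated data.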

Additional observations from a re-analysis of the deposited data

How the results depend on the processing

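The share of cells with 2 or more members, 29.9%, was 50.5% with 1 read in place of 5, 39.5% with 1 read in thinned cells and 18.6% without Nrep, and lay between 26.5% and 34.7% under the 5 other choices. The mean rho of the 21 pairs, 0.286, was 0.253 without thinning, 0.347 as Pearson r of log2 reads and 0.329 without cells with 2 or more markers of another type. That filter, the choices without Nrep, without WT June29 and without WT June5, and the one without the top cell were added after seeing the data. The median rho of members with the Tas2r number, 0.341, stayed between 0.324 and 0.459 under 10 alternatives, beside an SD of 0.136 over the wild-type sets. Of the members, 1 (Mei4, lower in Aire-/- batch 2) passed the size rule with 1 read for a found cell and 1 (Mei4, lower) on plate 1 only, against 0 in the comparison as given and 0 under the 7 other alternatives. The causes were not tested. No paired analysis was possible because each set is 1 pool without replicates, no test exists to carry a block, and well numbers shared between the June sets name wells and not animals. With the median level of all 3 WT sets as denominator the log2 fold of Epha5 was 0.61 in place of -0.90. The 29 cells of WT June5 allow a Stx19 share of up to 10.3%.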
